A study of Drosophila melanogaster with 4 samples.

Results

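CBP occupancy was examined at 5 genes of the mesodermal program of the early *Drosophila* embryo, *twi*, *sna*, *Mef2*, *htl* and *zfh1*. The members were all CBP-bound regions, in either genotype, that overlapped a fixed window around each gene on release 5 of the genome. The windows were 20 kb at *twi* (2R, 18.925 to 18.945 Mb), 15 kb at *sna* (2L, 15.470 to 15.485 Mb), 30 kb at *Mef2* (2R, 5.820 to 5.850 Mb), 30 kb at *htl* (3R, 13.870 to 13.900 Mb) and 45 kb at *zfh1* (3R, 26.580 to 26.625 Mb). They held 6 of the 1939 regions listed for gd7 embryos and 15 of the 3013 regions listed for wild-type embryos, 21 of 4952 in all. The windows follow the genes, which were picked with earlier results of these data known.

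The regions came from chromatin immunoprecipitation and sequencing (ChIP-seq) with an antibody against CBP, on embryos aged 2 to 4 hours. The gd7 embryos were laid by mothers homozygous for gd7, a mutation of the protease gene *gastrulation defective*, and lack Dorsal in their nuclei. The wild-type embryos came from w1118 flies. Each genotype had 1 CBP library, pooled from about 10 immunoprecipitations, and 1 input library, so within these lists a difference between the genotypes has no replicate check and no test. The deposited lists hold no read counts, so the depth behind each region and its counting error were not analysed here. The embryos were whole, so that a lower value in gd7 can mean fewer nuclei that carry CBP at a site or less CBP per nucleus, and these cannot be told apart. Values are log2 enrichment over input, averaged by the authors over the 5 highest consecutive points of a region. The lowest value listed was 1.93 in gd7 and 1.88 in wild-type. A region was listed only if it was at least 200 bp long, and signal below these limits is not in the lists. No expression data were analysed here, so the genotype and tissue were not checked against marker genes.

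CBP, encoded by *nejire*, is a co-activator that acetylates histones and is brought to enhancers and promoters by transcription factors. Dorsal, a Rel-family factor, enters the nuclei on the ventral side of the embryo, where its highest levels switch on *twi* and *sna*. *twi* encodes a basic helix-loop-helix activator and *sna* a zinc finger repressor, and together they make the ventral cells mesoderm. Twist in turn activates *Mef2*, a MADS-box factor of muscle differentiation, *htl* (*heartless*), an FGF receptor that mesoderm cells need to spread over the ectoderm, and *zfh1*, a zinc finger and homeodomain factor of the mesoderm. Embryos from gd7 mothers form no mesoderm.

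At *twi*, *Mef2* and *htl* no CBP region was listed in gd7, against 2, 3 and 3 regions in wild-type embryos. At *sna* and *zfh1* the main wild-type regions were also listed in gd7, and at *sna* with nearly the same value. Counted over the 5 windows, 10 of the 15 wild-type regions had no overlapping gd7 region (66.7%, exact 95% Clopper-Pearson interval 38.4 to 88.2%, for counting error alone). Over the whole wild-type list this share was 59.6%, so the count of missing regions over the 5 loci together was near the background. The interval takes regions of 1 locus as independent, which they are not. It is also too wide to set the shares apart or to show them alike. With values of 2.5 or more in both lists the order of these shares turned, to 50% at the 5 loci (3 of 6 regions) and 62.1% over the whole list, and with centres within 200 bp as the rule they were 66.7% and 68.1%. By arm the share was 60.5% on 2L, 60.0% on 2R and 59.2% on 3R. In the other direction, 1 of the 6 gd7 regions had no wild-type region, next to 37.3% over the whole gd7 list. The 6 gd7 regions covered 1995 bp of the windows and the 15 wild-type regions 6090 bp, with mean values of 2.44 in gd7 and 2.60 in wild-type. Over the whole lists, covered length was 1175055 bp in gd7 and 1438360 bp in wild-type.

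**Figure D1:**
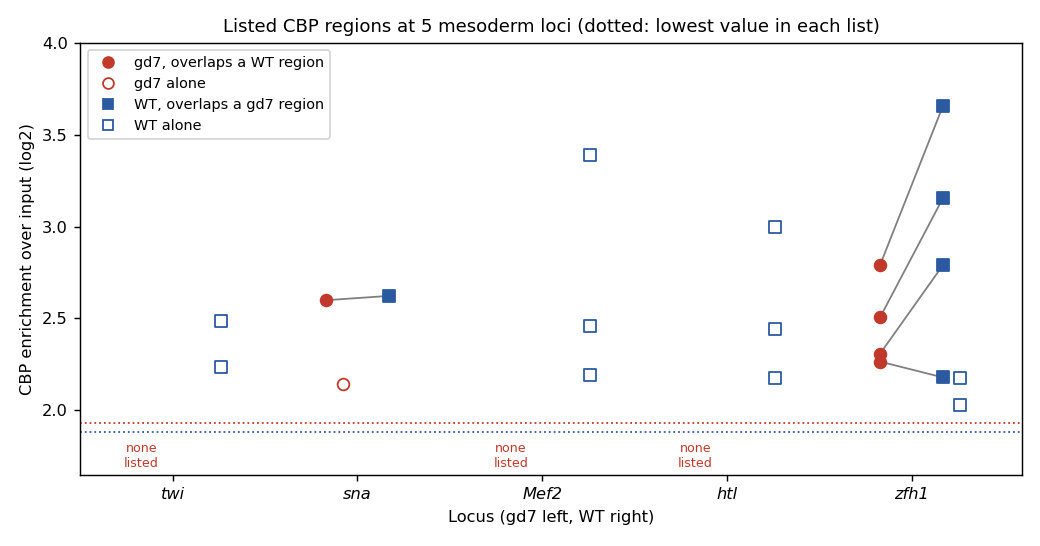
Log2 CBP enrichment over input (vertical axis) of every listed region at the 5 loci, with gd7 regions as red circles on the left and wild-type regions (WT) as blue squares on the right of each locus. Filled symbols overlap a region of the other genotype and are joined by a line, open symbols do not and are set slightly to the right, and dotted lines mark the lowest value of each list, 1.93 in gd7 and 1.88 in wild-type. Regions at *twi*, *Mef2* and *htl* are listed in wild-type alone, and 3 of the 4 joined regions at *zfh1* are lower in gd7.

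*twi* heads the mesodermal program. No gd7 region lay in its window, and the wild-type list held a promoter region at 2R:18933670-18934090 with a value of 2.48, and a second region at 2R:18936995-18937485 with 2.24. The table that names the nearest transcript of each peak places the centres 136 and 3496 bp from the same start site, that of twi-RB, so that position 18933849 is the single start site that fits both. Both regions were of middling strength, ranking 1331 and 1976 of 3013 in wild-type, and were 420 and 490 bp long. They stood 1.47-fold and 1.24-fold above the lowest gd7 value, so a fall of that size or more, or a stretch of signal under 200 bp, would keep them off the gd7 list. Which of these applied at *twi* was not tested. Of all wild-type regions between 2.25 and 2.5, 66.3% had no gd7 region, and of those between 2 and 2.25, 72.5% had none. For each *twi* region taken singly, absence was thus the more common outcome at its value. A share for both together was not computed.

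The absence of gd7 regions extended well beyond *twi*. The stretch of 2R without any gd7 region ran from 18690945 to 19094320, a length of 403 kb. Of the 1933 gaps between gd7 regions, 1.60% were at least as long, and the median gap was 11.7 kb. This share counts every gap equally, whereas a gap picked for a wild-type region inside it is more often a long one. It is therefore no background for this stretch and makes it look rarer than it is. The wild-type list had 8 regions in the same stretch, with values from 2.07 to 2.48, and the *twi* promoter region was the strongest of them. By the definition of the stretch, none of them could have a gd7 region. The wild-type region next to the *twi* window, 57 bp from a start site of the fibrillarin gene *Fib* and 17.02 kb past the window, had 2.18 and was likewise in wild-type alone. The nearest gd7 regions stood 234 kb before the *twi* window, with 3.60, and 149 kb past it, with 2.51.

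The *sna* window held 2 gd7 regions and 1 wild-type region, and 1 in each genotype when only values of 2.5 or more were kept. Its promoter region had a value of 2.60 in gd7 (2L:15478190-15478575) and 2.62 in wild-type (2L:15478085-15478680), a difference of -0.02 on the log2 scale or 0.984-fold. The difference was -0.07 with the values as deposited, -0.16 with each list centred on its median and -0.08 relative to all shared regions. The gd7 region was narrower, 385 bp against 595 bp in wild-type, and lay wholly inside the wild-type region, with its centre displaced by 105 bp. The values ranked 875 of 1939 in gd7 and 1056 of 3013 in wild-type. Among wild-type regions of like value, from 2.5 to 2.75, 60.1% had no gd7 region, and those that had one differed by a median of 0.01, with quartiles of -0.31 and 0.37. The difference at *sna* lay near the middle of that range. The centre was 61 bp from the start site of sna-RA.

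The other gd7 region in the *sna* window, at 2L:15471575-15471820, had no wild-type counterpart. It was weak, with a value of 2.14 that ranked 1663 of 1939, and 245 bp long. Its centre lay 6755 bp from that of the gd7 promoter region, and its nearest gene was not determined here. The wild-type value there was below the lower limit of that list or in a stretch too short to be listed. Just outside the window, a region nearest to *lace*, a gene of sphingolipid synthesis, was also found in both genotypes, with 2.79 in gd7 and 2.94 in wild-type. On the other side, 43.8 kb away from the window, the nearest wild-type region was that of *wor*, a gene of the same zinc finger family as *sna*, with 2.46 and no gd7 region.

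At *Mef2* no gd7 region was listed, and the window contained the strongest of the 10 member regions found in wild-type alone. This region, at 2R:5842550-5843355, had a wild-type value of 3.39, or 10.5-fold over input, ranked 216 of 3013 and was 805 bp long, the longest region at the 5 loci. It stood 2.75-fold above the lowest gd7 value. Of wild-type regions between 3.25 and 3.5, 30.5% had no gd7 region. A second region, at 2R:5830370-5830580, had 2.46 in wild-type and lay 13355 bp from the start site of Mef2-RC. With 210 bp it had the shortest length found in either list. The third, at 2R:5847065-5847450 with 2.19 in wild-type, was nearest to another gene, *CG12130*, at 221 bp from its start site.

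Beyond the edge of the window, 2.54 kb away, a further wild-type region at 2R:5817245-5817455 lay 248 bp from the Mef2-RC start site, with a value of 2.22 and again no gd7 region. Thus all 3 wild-type regions nearest to *Mef2* were in wild-type alone. The nearest gd7 region on that side was 57.1 kb from the window. On the other side, 11.4 kb away, a region at 2R:5861380-5861730 was listed in gd7 alone with 2.63. The gd7-free stretch around *Mef2* was 98.5 kb long and held 5 wild-type regions. Of all gaps between gd7 regions, 19.0% were at least as long. This stretch too was picked for a wild-type region inside it, so that share is no background for it.

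*htl* had no gd7 region and 3 wild-type regions. The strongest, at 3R:13875015-13875365, had a wild-type value of 2.997, or 7.98-fold over input, and ranked 494 of 3013. It stood 2.09-fold above the lowest gd7 value, and 47.4% of wild-type regions between 2.75 and 3 had no gd7 region. A weaker region at 3R:13875820-13876135, with 2.18 in wild-type, followed after a gap of 455 bp. Their centres were 805 bp apart, whereas the median distance between neighbouring wild-type centres was 14805 bp and 7.32% of neighbours were within 1 kb. The third region lay farther on, 13090 bp from centre to centre, at 3R:13888980-13889225, with 2.44 in wild-type. The distances of the *htl* and *zfh1* regions to a start site were not analysed here, because the part of the peak table used ends on 3R before both genes.

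Outside the *htl* window, a strong region was listed in gd7 alone. This region at 3R:13906375-13907005, 6.38 kb past the window, had a value of 3.196, and its nearest gene was not determined here. It ranked 295 of 1939, above every gd7 region inside the 5 windows. The next gd7 region on the other side was 218 kb from the window. The gd7-free stretch across *htl* was 254 kb long, and 5.74% of all gaps between gd7 regions were at least as long. As at *twi*, this share counts every gap equally and is no background for a stretch picked in this way. The stretch held 6 wild-type regions, the strongest with 3.72. The strongest wild-type region of that stretch therefore lay outside the *htl* window.

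**Figure D2:**
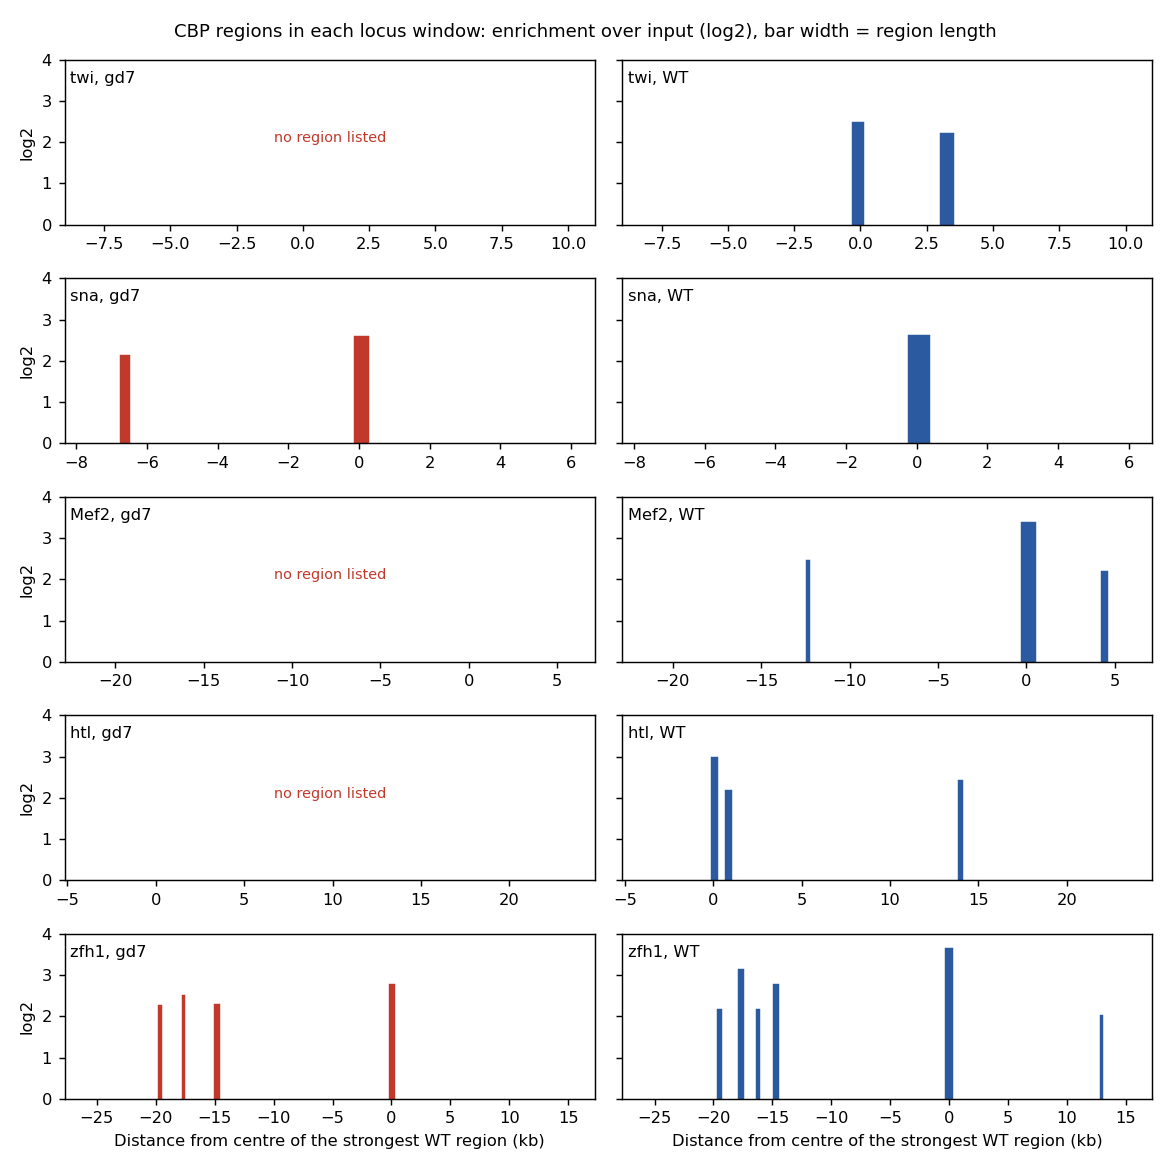
Position and log2 CBP enrichment over input of the listed regions across each window, with gd7 on the left and wild-type (WT) on the right. The horizontal axis gives the distance in kb from the centre of the strongest wild-type region of the locus, each bar is as wide as its region and as high as its value. At *zfh1* the cluster to the left holds 3 gd7 and 4 wild-type regions.

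The *zfh1* window, the longest of the 5, held 4 regions in gd7 and 6 in wild-type, and every gd7 region overlapped a wild-type one. The regions covered 3.03% of it in gd7 and 5.06% in wild-type, and at *sna* 4.2% in gd7 and 3.97% in wild-type. When the wild-type list was shortened to as many regions as the gd7 list, the *zfh1* counts turned to 4 in gd7 and 3 in wild-type. The strongest had a value of 2.79 in gd7 (3R:26607560-26607980) and 3.66 in wild-type (3R:26607350-26607945), that is 6.93-fold over input in gd7 and 12.6-fold in wild-type. The difference of -0.86 corresponds to 0.549-fold and did not pass the 2-fold limit. In its own list it ranked 644 of 1939 in gd7 and 119 of 3013 in wild-type, the highest rank of any region at the 5 loci in either genotype. The centres were 35 bp apart.

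The other regions shared at *zfh1* formed part of a cluster on the side of lower coordinates. Within it, the region at 3R:26589780-26590235 in wild-type had 2.51 in gd7 and 3.16 in wild-type, a difference of -0.65. The one at 3R:26592755-26593175 in wild-type had 2.31 in gd7 and 2.79 in wild-type, a difference of -0.48. The outermost, at 3R:26588065-26588345 in wild-type, was weak in both genotypes, with 2.27 in gd7 and 2.18 in wild-type. Here the regions overlapped by 141 bp, the gd7 centre lay 140 bp away and outside the wild-type region, and the difference of 0.09 changed its sign, to -0.047, when each list was centred on its own median. So the 3 stronger regions of *zfh1* were lower in gd7, in the order of their wild-type values, and the weakest was not.

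Another 2 wild-type regions at *zfh1* had no gd7 region. One, at 3R:26591355-26591635 with 2.18, lay within the cluster, between shared regions whose wild-type values were higher. The other, at 3R:26620510-26620755 with 2.03, was the weakest of all member regions and stood 1.07-fold above the lowest gd7 value. The 4 wild-type regions of the cluster spanned 5110 bp, with centres 1890, 1400 and 1540 bp apart. In gd7 the cluster kept 3 regions, with centres 1995 and 2870 bp apart. A further wild-type region 3.91 kb past the window had 2.40 and no gd7 region.

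Across the loci, the shared regions were compared with all shared regions of the series. Of the 5 shared wild-type regions, 4 had a lower value in gd7, with differences of -0.02 at *sna* and of -0.48, -0.65 and -0.86 at *zfh1*. Over all 1217 shared regions, 46.8% were lower in gd7. The median difference was -0.48 at the 5 regions and 0.06 over all. None of the 5 passed the 2-fold limit, next to 5.92% of all shared regions more than 2-fold lower and 10.2% more than 2-fold higher in gd7. The difference varied with the wild-type value over the whole series, and since no gd7 value below 1.93 was listed, a weak wild-type region could not show a large fall. Among the 358 shared regions with a wild-type value of at least 3, 80.2% were lower in gd7 and the median difference was -0.57. Set beside regions of like wild-type value, the 3 stronger *zfh1* regions had differences within the usual range. The region with 3.66 in wild-type compares with a median of -0.88 for its class and the one with 3.16 with -0.34. The region with 2.79 compares with -0.14, and all 3 lay between the quartiles. The weakest shared *zfh1* region lay below the lower quartile of its class (0.18), and 11.3% of shared regions with a wild-type value between 2 and 2.25 were lower in gd7.

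**Figure D3:**
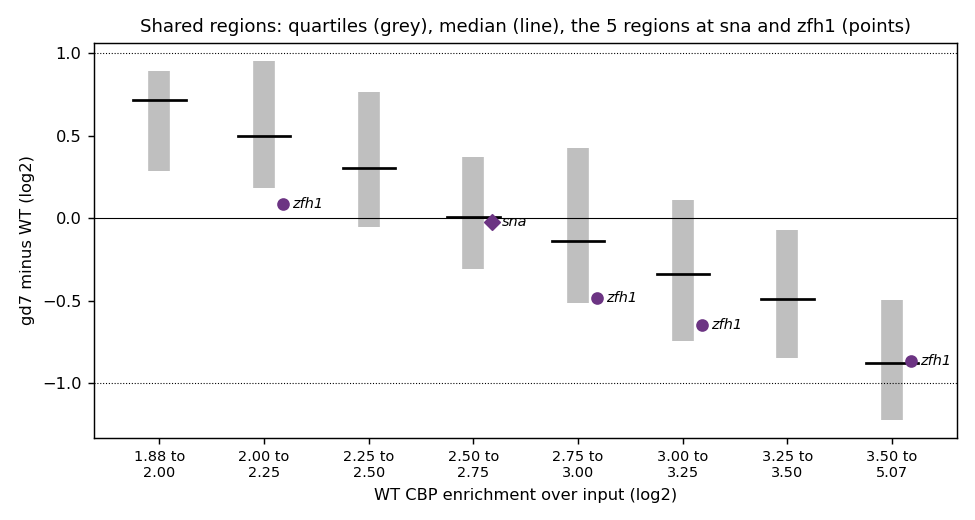
Difference in log2 CBP enrichment, gd7 minus wild-type (WT), at regions listed in both genotypes, grouped by wild-type value. Grey bars span the quartiles and black lines mark the medians of all 1217 shared regions, points are the regions at *sna* and *zfh1*, and dotted lines mark 2-fold. All 5 points lie within 2-fold, and 4 of them lie within the quartiles of their class.

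The regions found in wild-type alone were also read against their strength. Of the 6 member regions with a wild-type value of at least 2.5, 2 had no gd7 region, the strongest ones of *Mef2* and *htl*. Over the whole list the share was 44.1% at such values. Of the 9 weaker regions 8 had none, next to 71.2% over the whole list. The 10 regions in wild-type alone had medians of 2.34 for the value and 332.5 bp for the length, against 2.79 and 455 bp for the 5 shared ones. Over the whole list the same medians were 2.30 and 315 bp for regions in wild-type alone and 2.65 and 525 bp for shared ones. Both *Mef2* and *htl* thus had a region that stood more than 2-fold above the lowest gd7 value and was missing from the gd7 list, as had 170 of the 1796 wild-type regions without a gd7 region (9.47%).

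**Figure D4:**
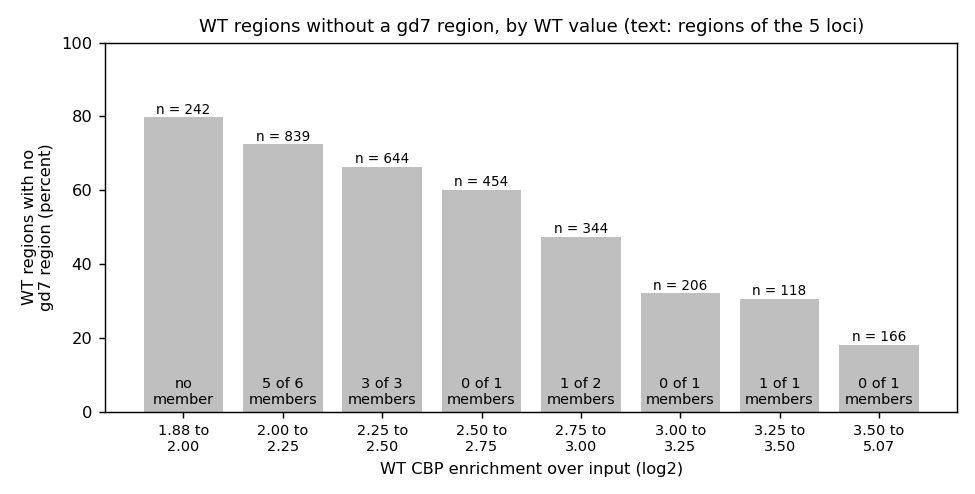
Percent of wild-type (WT) regions with no overlapping gd7 region (bars, starting at 0), grouped by log2 CBP enrichment in wild-type, with the number of wild-type regions above each bar. The text in the bars counts the members at the 5 loci. The share falls from 79.8% in the weakest group to 18.1% in the strongest, and 9 of the 15 members lie below 2.5, where 8 of the 9 have no gd7 region.

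The strongest region of each locus gave an order in which *zfh1* came first in both genotypes. In gd7 the highest values were 2.79 at *zfh1* and 2.60 at *sna*, and the other 3 loci had none. In wild-type they were 3.66 at *zfh1*, 3.39 at *Mef2*, 2.997 at *htl*, 2.62 at *sna* and 2.48 at *twi*. With 1 library per genotype there is no spread against which neighbours in this order can be told apart. The windows differ in length, and the wild-type order has the longest window, of 45 kb at *zfh1*, first and the shortest, of 20 kb at *twi* and 15 kb at *sna*, last.

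Other genes of the mesoderm or linked to it were read from a list of 24 genes that includes the 5, by the nearest start site of each wild-type region. Besides mesoderm factors, the list holds genes of FGF signaling, adhesion, guidance and the bordering midline cells, among them *ths*, *CadN* and *sim*. Of the 24, 10 lie on 2L, 2R or 3L, where every wild-type region had a nearest gene, 11 on 3R, which was covered in part, and 3 on X, which was not covered. The nearest gene was on the list for 18 wild-type regions at 9 genes. Of these regions, 11 (61.1%, exact interval 35.7 to 82.7%) had no gd7 region, next to 59.6% of the whole list. The interval takes regions of 1 gene as independent, which they are not. It is also too wide to set the shares apart or to show them alike. Of the 18, 6 are the regions nearest to *twi*, *sna* and *Mef2*. For 3 genes on the covered arms, *pyr*, *cta* and *Mdr49*, no wild-type region was nearest. At *bin* (*biniou*), a forkhead factor of the visceral mesoderm, the only wild-type region had 2.95 and no gd7 region. At *stumps*, the adaptor that acts downstream of the FGF receptor, 1 region had 2.16 in gd7 and 2.08 in wild-type, and the other, with 2.05 in wild-type, had no gd7 region. *ths*, which encodes an FGF ligand of this receptor made in the neuroectoderm, had 2.64 in gd7 and 2.54 in wild-type.

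The 4 wild-type regions nearest to *sim*, a regulator of the midline cells that border the mesoderm, held the 1 fall past 2-fold in this list. There the value was 2.76 in gd7 and 4.13 in wild-type, a difference of -1.37, at 3R:8889615-8890350. For its class, a wild-type value of 3.5 or more, the median difference was -0.88 and the lower quartile -1.22. The fall at *sim* lay below that quartile, but the quartile itself was past 2-fold, so such falls were not rare in this class. A second shared region at *sim* had 2.32 in gd7 and 2.90 in wild-type, and 2 more, with 2.88 and 2.27 in wild-type, had no gd7 region. The promoter region of *slp1*, a forkhead gene of segmentation and mesoderm subdivision, had 2.77 in gd7 and 3.59 in wild-type. Its difference of -0.82 lay between the quartiles of the class of 3.5 or more. A region at *CadN*, the gene of N-cadherin, had 2.32 in gd7 and 2.70 in wild-type. Both *slp1* and *CadN* also had a wild-type region with no gd7 region. Of the 7 shared regions of the list, 5 were lower and 2 higher in gd7, with a median difference of -0.38. Over all shared regions 46.8% were lower and the median was 0.06, and among those with a wild-type value of at least 2.5, 66.8% were lower and the median was -0.30.

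**Figure D5:**
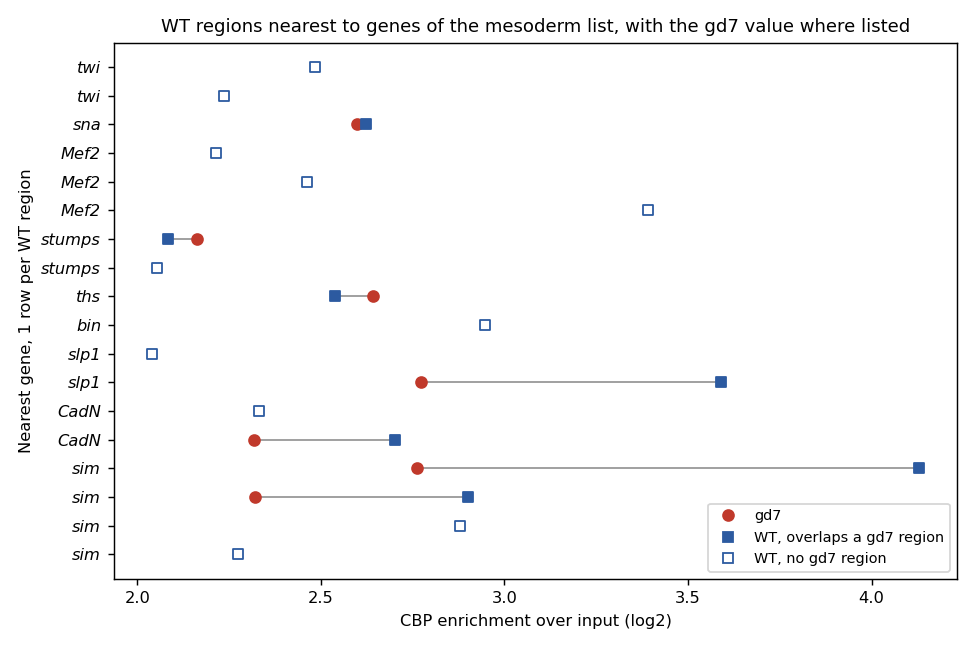
Log2 CBP enrichment over input (horizontal axis) for the 18 wild-type (WT) regions nearest to a gene of the mesoderm list, 1 row per region. Red circles are gd7 values, filled blue squares are wild-type values of shared regions and open squares are wild-type regions with no gd7 region. The widest gap is at *sim*, with 2.76 in gd7 and 4.13 in wild-type, and 11 of the 18 squares are open.

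Read in the same way, genes of the dorsal ectoderm and the neuroectoderm gave other counts. Each of these lists had 11 genes. Of the dorsal ectoderm genes, 7 lie on fully covered arms, 3 on 3R and 1 on X. Of the neuroectoderm genes, 6 lie on fully covered arms. The other 5, *vnd*, *sog*, *brk*, *ac* and *l(1)sc*, lie on X and could not be read, so the counts leave them out. Of 14 wild-type regions nearest to *dpp*, *zen*, *ush*, *tup*, *Doc1*, *Doc2* or *Doc3*, which act on the dorsal side, 0 lacked a gd7 region (exact upper limit 23.2%), next to 59.6% of the whole list. Their median wild-type value was 2.24, and of all wild-type regions between 2 and 2.25, 72.5% lacked one. Of the 14, 8 were higher and 6 lower in gd7, with a median difference of 0.17. Past 2-fold, 3 were higher and 0 lower, next to 10.2% higher and 5.92% lower over all shared regions. Of 10 wild-type regions nearest to *rho*, *vn*, *ind*, *ths*, *SoxN* or *Egfr*, genes of the neuroectoderm or of EGF receptor signaling, 2 lacked a gd7 region (20.0%, exact interval 2.52 to 55.6%), next to the same 59.6%. Of the 8 shared ones, 6 were higher and 2 lower in gd7, with a median difference of 0.43, and past 2-fold 3 were higher and 0 lower. Of these 3, 2 were at *Egfr* and 1 at *SoxN*. Among the 6 higher ones, 2 neighbouring *Egfr* regions took the same gd7 value of 3.96 and so are counted from 1 gd7 value. The region at *ths* stands in both the mesoderm and the neuroectoderm list. Regions of 1 gene share their locus and are not independent, the lists were chosen with results of these data known, and the difference between the lists was not tested.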

How the data were processed

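For each genotype, reads were aligned by the authors to the release 5 assembly. Their log2 ratio of CBP ChIP to input was computed every 35 bp and smoothed in 350 bp windows, the top 5% of values were retained, and runs of these of 200 bp or more became regions. A deposited log2 value lies below the value in the study's peak table by a fixed amount per list. This amount, 1.93 in gd7 and 1.88 in wild-type, was taken from the 170 gd7 and 1999 wild-type regions that could be matched, varied by no more than 5e-06, and was added to every value. The lists were not scaled to each other. The peak table was held in part, and it was otherwise used for nearest genes and start sites.

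Regions with at least 1 bp in common were taken as overlapping, with GFF ends inclusive. Overlaps were computed in Python 3.11.15 (pandas 2.3.3, numpy 2.4.6), and bedtools 2.31.1 gave identical counts. The code was first tested on simulated regions. The difference at a wild-type region is the highest overlapping gd7 value minus the wild-type value. Exact intervals were made with scipy 1.17.1, and matplotlib 3.10.9 drew the plots. Named genes are the 5 members, the genes next to their windows and the listed genes with a wild-type region. Members and lists were chosen with earlier results of these data known. Chromosome arms of listed genes were read from RefSeq (release 6), whose coordinates were not used. Sequences, and the exonic or intronic position of regions, were not analysed here. Alternatives for the window, the lower limit, the size of the lists, overlap and centring were tried.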

Additional observations from a re-analysis of the deposited data

How the results depend on the processing

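The share of wild-type regions at the 5 loci with no gd7 region was 50% to 68.4% under the 7 alternatives, and the share over the whole list was 51.6% to 68.1%. The share at the 5 loci was the lower one at values of 2.5 or more (50% and 62.1%) and with centres within 200 bp (66.7% and 68.1%), and the higher one otherwise. The mesoderm list had 55.6% and 66.7% under these same 2 rules, also below the whole list. With windows widened by 10 kb, *sna* had 3 regions in gd7 and 2 in wild-type, and *htl* had 1 in gd7. The wild-type counts then were 4 at *Mef2* and 8 at *zfh1*. When only regions of 2.5 or more were kept, the counts in gd7 were 1 at *sna* and 2 at *zfh1*, and in wild-type 0 at *twi*, 1 at *Mef2*, 1 at *htl* and 3 at *zfh1*. With the wild-type list shortened to the 1939 strongest regions, *twi* had 1, *Mef2* 2, *htl* 2 and *zfh1* 3 in wild-type. So *zfh1*, with 4 in gd7, then had more regions in gd7. These changes follow from the wider window, the higher limit and the shorter list themselves. The median difference at the 5 shared regions, gd7 minus wild-type, was -0.53 with the values as deposited, -0.61 with each list centred on its median and -0.54 relative to all shared regions. Centring on the list medians also turned the weakest shared *zfh1* region to -0.047, and no other direction changed at the 5 shared regions under these 3 scalings. No paired analysis was possible because each genotype had 1 library, and for the same reason no replicate could be left out. Depth is not in the lists, and its effect on the values was not analysed here.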
